A study of Mus musculus with 18 samples.

Results

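Egr1, Egr2, Fos, Fosl1, Jun, Ier2, Ier3, Etv4, Etv5 and Etv1 are 10 genes whose transcription is commonly read as a sign of MEK/ERK activity. They were taken by symbol from the count table and not by a cut-off on their values. They were, however, chosen with earlier results of these data known. They are 10 of the 49671 gene identifiers in the table, of which 31411 had a count in at least 1 sample. All 10 passed the filter on low counts in both fits, among 16413 genes tested in the wild-type cultures and 14893 in the Esrrb fl/fl cells.

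Fgf receptors activate a chain of kinases that ends with MEK and ERK, and ERK phosphorylates transcription factors that switch on genes within minutes, without new protein synthesis. Such immediate early genes include the zinc finger factors Egr1 and Egr2, the AP-1 subunits Fos, Fosl1 and Jun, and the small proteins Ier2 and Ier3. The PEA3 group of ETS factors, Etv1, Etv4 and Etv5, respond to Fgf signalling on a slower scale. In mouse embryonic stem (ES) cells, Fgf4 made by the cells keeps this pathway active, and blocking MEK helps to hold them in naive pluripotency.

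The study asked how Wnt/β-catenin signalling affects the formation of polarised rosettes by ES cells, and RNA was sequenced from 18 samples that form 6 groups of 3. Wild-type E14 ES cells at passage 20, labelled strain 12910la, were cultured in N2B27 medium in 3D Matrigel depleted of growth factors for 48 h. The 4 cultures held the solvent DMSO, the GSK3 inhibitor CHIR99021 at 3 µM (CH), CHIR99021 at 3 µM with the MEK inhibitor PD0325901 at 0.4 µM (2i), or Fgf2 at 12 ng/ml with Activin A at 20 ng/ml (Fgf2/Activin). Esrrb fl/fl ES cells at passage 25, labelled as from Acr-EGFP transgenic mice, carry a tamoxifen-inducible Cre (MerCreMer) and were left untreated (Esrrb NT) or treated for 1 day with 4OHT to delete Esrrb (Esrrb 4OHT), then cultured in 3D for 24 h in CHIR99021 at 3 µM. All cells had been maintained in 2i with Lif beforehand, and all were freed from Matrigel with enzymes for 30 min at 37 °C before RNA was extracted. The E14 and Esrrb fl/fl samples differed in cell line, passage, hours of culture and depth, which cannot be told apart, so they were scaled and tested separately. No samples were treated with 4OHT while keeping Esrrb, so loss of Esrrb cannot be told apart from 4OHT treatment with active Cre.

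Promoter sequences are shown first, for genes on which the results below turn. RefSeq windows of GRCm38.p6, 250 bases before to 50 after a start site, matched by symbol for 6 of the 10 genes (Egr2, Fos, Jun, Ier3, Etv5 and Etv1) at 12 start sites, and no window was matched for Egr1, Fosl1, Ier2 and Etv4. The 250 bases before the start are printed for Egr2, which fell with the MEK inhibitor, and for Fos and Jun, AP-1 genes whose levels spread widely between libraries, of which Jun rose after Esrrb deletion. Capitals mark a CArG box, the sequence bound by serum response factor, through which ERK and ternary complex factors act on many immediate early genes. The Egr2 windows lie at chr10:67537316-67537565 and chr10:67537619-67537868 on the plus strand, the Fos window at chr12:85473640-85473889 on the plus strand, and the Jun window at chr4:95052223-95052472 on the minus strand.
Egr2, first window: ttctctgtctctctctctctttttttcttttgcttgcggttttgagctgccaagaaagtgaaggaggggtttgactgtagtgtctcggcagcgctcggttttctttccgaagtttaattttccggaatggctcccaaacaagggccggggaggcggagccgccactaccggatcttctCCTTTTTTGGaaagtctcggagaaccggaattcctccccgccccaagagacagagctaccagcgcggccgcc
Egr2, second window: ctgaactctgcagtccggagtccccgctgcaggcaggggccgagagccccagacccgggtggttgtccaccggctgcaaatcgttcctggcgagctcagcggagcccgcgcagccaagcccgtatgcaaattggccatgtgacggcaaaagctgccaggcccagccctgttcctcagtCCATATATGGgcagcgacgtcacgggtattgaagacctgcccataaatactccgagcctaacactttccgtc
Fos: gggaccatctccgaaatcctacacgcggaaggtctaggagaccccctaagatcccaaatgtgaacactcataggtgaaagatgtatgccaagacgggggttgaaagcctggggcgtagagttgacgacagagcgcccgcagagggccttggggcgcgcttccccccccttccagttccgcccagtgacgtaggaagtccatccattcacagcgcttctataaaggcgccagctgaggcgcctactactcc
Jun: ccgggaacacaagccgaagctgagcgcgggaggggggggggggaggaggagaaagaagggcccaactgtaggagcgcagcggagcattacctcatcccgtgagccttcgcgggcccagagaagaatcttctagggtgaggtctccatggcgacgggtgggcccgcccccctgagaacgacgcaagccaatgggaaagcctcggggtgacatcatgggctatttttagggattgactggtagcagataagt

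Both strands of all 32851 windows of the table were searched for a CArG box, the AP-1 site TGAGTCA, the cyclic AMP element TGACGTCA, the ETS core CCGGAAG, and the TCF/LEF site CTTTGAA, which was also accepted with the ending of CTTTGAT. A CArG box was held by 1.63% of all windows, an AP-1 site by 5.20%, a cyclic AMP element by 1.79%, the ETS core by 8.86% and a TCF/LEF site by 8.65%. Among the 12 windows of these genes, the only matches were CArG boxes in 4 of the 5 Egr2 windows, which overlap in part. They were 2 different boxes, at chr10:67537494-67537503 and chr10:67537797-67537806, each starting 72 bases before a start site. A match describes the letters and is neither a bound site nor a cause, and the other windows held none of these letters. Sites outside these windows, or with letters that differ from those searched, would be missed. A window without a match therefore does not show that the gene lacks such a site.

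In the GENCODE annotation of GRCm38, all 10 are protein-coding genes. Egr1 lies at chr18:34859823-34864984, Egr2 at chr10:67535475-67542188, Fos at chr12:85473890-85477273 and Fosl1 at chr19:5447547-5455946. Jun lies at chr4:95049034-95052222, Ier2 at chr8:84661331-84662852 and Ier3 at chr17:35821684-35822923. Etv4 lies at chr11:101769742-101785371, Etv5 at chr16:22381309-22439719 and Etv1 at chr12:38779380-38870484. Reads were counted without regard to strand, which matters where genes overlap. The opposite-strand gene Ccdc85b covers 57.2% of the exon bases of Fosl1, and Junos covers 7.28% of those of Jun. Etv1 shares 1453 bases with Gm5454, which had at most 1 count in any library, and Etv5 shares 1700 bases with Gm4798, not analysed here.

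Gene counts summed to 25388139 to 37158661 in the 12 E14 samples and to 19915222 to 20140699 in the 6 Esrrb fl/fl samples. Levels are given as counts-per-million values (CPM) after TMM scaling, and errors are SD over 3 samples. The labels do not say that replicates came from separate cultures, so p-values measure the spread between these samples, which may be technical. Esrrb itself lay between 109 and 142 CPM in the Esrrb NT libraries and between 58.9 and 63.7 CPM in the Esrrb 4OHT libraries, so its reads were reduced and not absent after 4OHT. All 6 pluripotency markers (Pou5f1, Sox2, Nanog, Sall4, Lin28a and Utf1) were detected in every group, with Pou5f1 at means of 602 to 1210.4 CPM, but others moved with the groups. Nanog had means of 25.5 CPM in DMSO, 294 in CH, 505 in 2i and 44.2 in Fgf2/Activin, Sox2 of 84.5, 341, 456 and 70.2 CPM, and Utf1 of 685, 242, 192 and 679 CPM. In Esrrb 4OHT against NT all 6 were lower at an unadjusted p under 0.05, 1 of them called, where 3.87% of all genes were called lower. The mesendoderm markers T, Mixl1, Eomes, Gsc and Foxa2 did not move together. In CH against DMSO 3 of the 4 tested were called higher and 1 lower, where 7.51% of all genes were called higher and 10.2% lower. Gsc was not tested there. T went from a mean of 0.467 CPM in DMSO to 534 in CH, while Eomes fell from 11.4 to 2.71 CPM (log2 -2.08, adjusted p = 0.00158). Their summed level, mostly Eomes in DMSO and mostly T in CH, differed between the groups. The sum was 8.96 to 14.1 CPM in DMSO, 442 to 671 in CH, 83.4 to 118 in 2i, 11.7 to 17.6 in Fgf2/Activin, 52.7 to 76.0 in Esrrb NT and 336 to 490 in Esrrb 4OHT. None of the 5 was at 0 in every library of a group, and the part of either set of markers in the results below was not tested.

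Per kilobase of exon, Etv5 had the highest mean level of the 10 genes in each of the 6 groups, between 77.2 CPM per kb in Esrrb 4OHT and 161 CPM per kb in Fgf2/Activin. Ier2 followed in 5 groups, between 66.0 and 104 CPM per kb, while in Esrrb NT its 67.0 ± 3.93 CPM per kb was below the 72.3 ± 3.36 of Egr1. In Esrrb 4OHT, Etv5 at 77.2 ± 3.70 and Ier2 at 75.7 ± 7.78 CPM per kb did not differ beyond their spread. Egr2 was among the lowest, between 0.0292 CPM per kb in 2i and 0.855 CPM per kb in Esrrb 4OHT. Within the 4 E14 cultures, the highest group mean was 121 times the lowest for Egr1, 17.95 times for Egr2, 1.57 times for Ier2 and 1.21 times for Etv5.

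**Figure D1:**
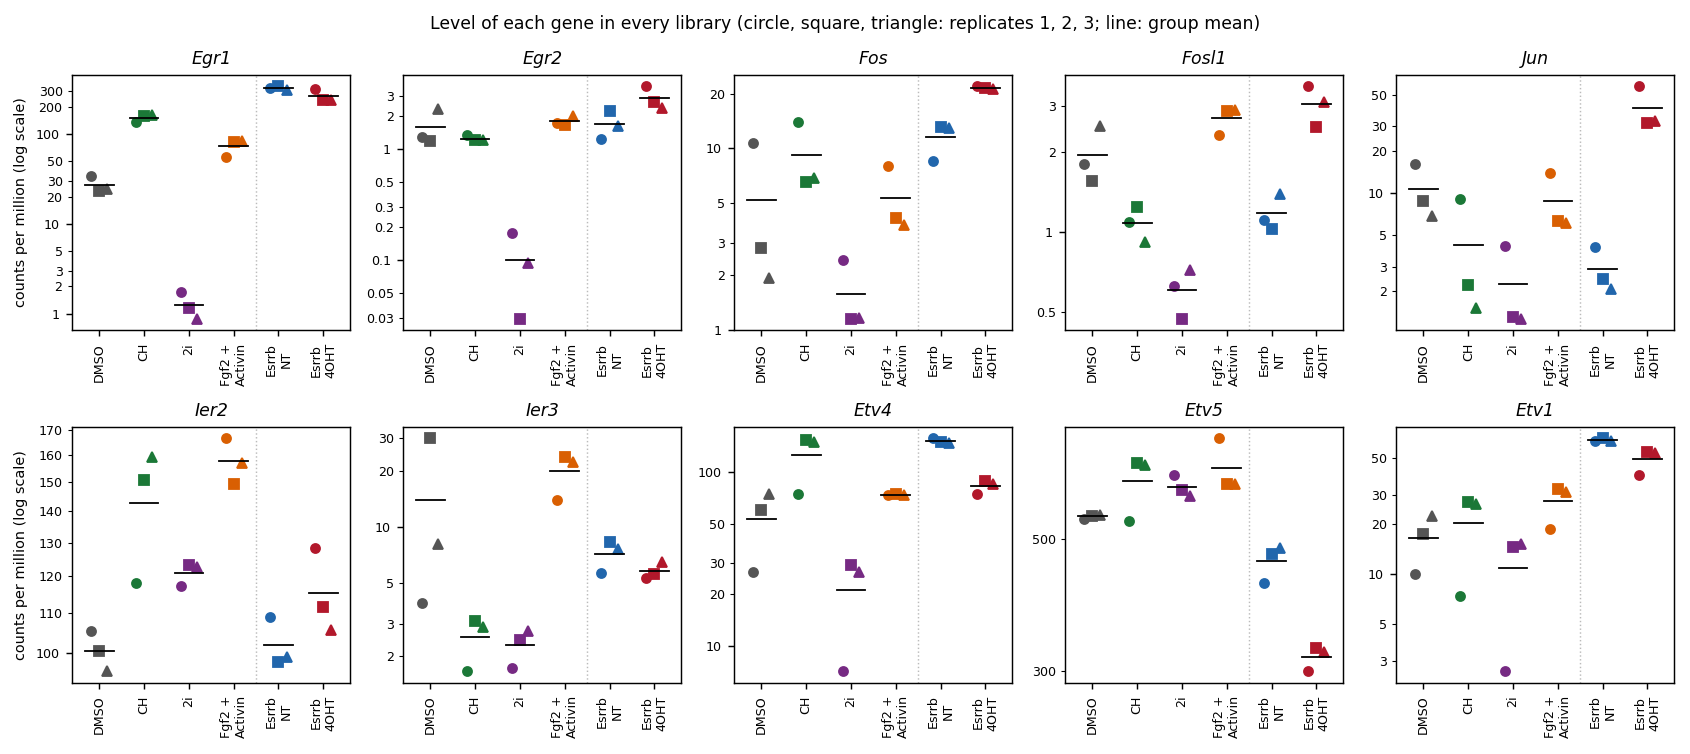
Level of each of the 10 genes in CPM (log scale, a range of its own in each panel) in the 18 libraries, by group. Circles, squares and triangles are replicates 1, 2 and 3 and the line is the group mean; Egr1 spans 0.874 to 340.15 CPM, while Ier2 stays between 95.8 and 166.5 CPM.

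The MEK inhibitor was read from 2i against CH, which share CHIR99021. Egr1 and Egr2 fell, Fos and Etv4 had lower means in 2i with a spread that decided their call, and Etv5 and Ier2 stayed within narrow bounds. A gene was called at an adjusted p under 0.01 and a change of more than 2-fold, by edgeR's quasi-likelihood test over all genes. By this rule 2 of 10 genes were called lower in 2i, where 1.67% of all genes tested were called lower. None of the 10 was called higher, with 0.317% of all genes called higher. At an unadjusted p under 0.05, 0 of them were higher, and DESeq2 called 0 higher and 4 lower. Their median log2 fold change was -0.92, and that of all genes was -0.00327. This fit took no account of the replicate numbers in the labels. With those fitted as a block, 4 of the 10 genes were called lower, with Fos and Etv4 added, and 0 higher. No share of all genes is given for the fit with the block.

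Egr1 encodes a zinc finger factor that is among the quickest and most direct responders to ERK. Its level was 135, 159 and 162 CPM in the 3 CH libraries and 1.74, 1.15 and 0.874 CPM in the 3 2i libraries. The groups lay far apart, and the 2i values rest on 28 to 50 counts per library. The fold change was 122-fold lower in 2i (log2 fold change -6.93 ± 0.28 SE, 95% interval -7.56 to -6.30, adjusted p = 9.75e-07). As these are bulk samples, fewer cells that express a gene and less RNA per cell cannot be told apart.

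Without either inhibitor, Egr1 was at 33.6, 23.3 and 24.1 CPM in DMSO, and with Fgf2/Activin it was at 54.8, 81.7 and 84.4 CPM. The 4 cultures thus did not overlap, in the order 2i, DMSO, Fgf2/Activin and CH, and each neighbouring pair was called. Against DMSO, Egr1 rose 5.63-fold in CH (log2 2.49 ± 0.22, adjusted p = 7.15e-06) and 2.73-fold in Fgf2/Activin (log2 1.45 ± 0.21, adjusted p = 0.00272), and it fell 21.6-fold in 2i (log2 -4.44 ± 0.27, adjusted p = 2.97e-07). It was 2.07-fold higher in CH than in Fgf2/Activin (log2 1.05 ± 0.21, adjusted p = 0.00192). The call between CH and Fgf2/Activin was lost without Fgf2/Activin replicate 1, with a log2 fold change of 0.87, below the minimum fold. The call against DMSO in Fgf2/Activin was lost without DMSO replicate 2 or 3 or Fgf2/Activin replicate 2 or 3, with an adjusted p of at most 0.0172.

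Egr2, a paralogue of Egr1, was lower in 2i as well and was not called in CH against DMSO. It was at 1.33, 1.21 and 1.20 CPM in CH and at 0.174, 0.0295 and 0.0937 CPM in 2i, which are 5, 1 and 3 counts. The groups did not overlap, and Egr2 fell 12.5-fold in 2i against CH (log2 -3.64 ± 0.46, 95% interval -4.65 to -2.64, adjusted p = 1.00e-03). The call was lost in a fit of only the 6 samples compared (adjusted p = 0.0113), and without 2i replicate 1, which holds the 5 counts, the log2 fold change was -4.27, still called. In DMSO it was at 1.28, 1.19 and 2.31 CPM and in Fgf2/Activin at 1.71, 1.64 and 1.98 CPM, ranges that overlap each other. CH against DMSO gave a log2 fold change of -0.34, with a 95% interval of -1.08 to 0.39 (adjusted p = 0.441), where Egr1 rose.

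The AP-1 genes were expressed at low levels, and Fos and Jun spread widely between libraries of a culture. Fos, which pairs with Jun proteins, was at 14.1, 6.54 and 6.88 CPM in CH, at 2.44, 1.15 and 1.16 CPM in 2i, at 10.7, 2.82 and 1.93 CPM in DMSO and at 7.97, 4.14 and 3.79 CPM in Fgf2/Activin. The library numbered 1 was highest in all 4 cultures, and 2i did not overlap CH or Fgf2/Activin. Between 2i and CH the log2 fold change was -2.54 ± 0.65 (adjusted p = 0.0384), which was not called. Blocked on the replicate number, it was -2.55 (adjusted p = 1.37e-04) and called, and over 12 alternatives the adjusted p lay between 3.69e-07 and 0.148.

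Jun, the founding AP-1 subunit, was at 16.2, 8.82 and 6.90 CPM in DMSO, 9.09, 2.22 and 1.52 CPM in CH, 4.21, 1.33 and 1.28 CPM in 2i and 13.9, 6.31 and 6.11 CPM in Fgf2/Activin. The library numbered 1 was again highest in every culture. None of its comparisons between E14 cultures was called by edgeR over all 12 libraries without the block, while DESeq2 called it lower in 2i than in DMSO (log2 -2.23, adjusted p = 0.00249) and in Fgf2/Activin (log2 -1.96, adjusted p = 0.00830). In the edgeR fit, 2i against CH gave -0.93 with a 95% interval of -2.48 to 0.63 (adjusted p = 0.561). With the block, Jun was called lower in CH than in DMSO (log2 -1.54, adjusted p = 2.35e-04), and over 12 alternatives that adjusted p lay between 2.44e-07 and 0.363. Its antisense partner Junos had between 0 and 16 counts per library over all 18 libraries, against 38 to 1179 for Jun.

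Fosl1, a Fos relative whose protein ERK stabilises, was at 1.81, 1.56 and 2.51 CPM in DMSO, 1.09, 1.24 and 0.919 CPM in CH, 0.627, 0.472 and 0.718 CPM in 2i and 2.31, 2.86 and 2.88 CPM in Fgf2/Activin. The 2i libraries were the lowest and did not overlap any other culture. Fosl1 was called lower in 2i than in DMSO (log2 -1.69 ± 0.26, adjusted p = 2.51e-04) and lower than in Fgf2/Activin (log2 -2.14 ± 0.26, adjusted p = 4.24e-05), but not lower than in CH (log2 -0.84 ± 0.26, adjusted p = 0.0859). These values rest on 16 to 87 counts per library. Ccdc85b, which overlaps it on the other strand, had 300 to 736 counts in the same libraries, ran from 300 to 438 in 2i and from 478 to 624 in DMSO, and its part in the counts of Fosl1 was not tested.

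Ier2 and Ier3 share a name but behaved differently. Ier2, a nuclear immediate early protein, was at 105, 100.3 and 95.8 CPM in DMSO, 118, 151 and 159 CPM in CH, 117, 123 and 123 CPM in 2i and 166.5, 149.5 and 157 CPM in Fgf2/Activin. All 9 libraries of the other 3 cultures lay above the 3 of DMSO. Against DMSO, CH gave a log2 fold change of 0.51 ± 0.10 (adjusted p = 0.00190) and Fgf2/Activin 0.65 ± 0.10 (adjusted p = 0.00358), both past the p but below 2-fold. Between 2i and CH it gave -0.24, with a 95% interval of -0.46 to -0.02 (adjusted p = 0.208).

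Ier3, a regulator of survival, had its most uneven levels in DMSO. It was at 3.87, 30.0 and 8.10 CPM in DMSO, 1.67, 3.11 and 2.88 CPM in CH, 1.74, 2.45 and 2.75 CPM in 2i and 13.9, 23.8 and 22.4 CPM in Fgf2/Activin. CH and 2i overlapped each other and lay below both other cultures, whether or not MEK was inhibited. Ier3 was called lower in CH than in DMSO (log2 -2.45 ± 0.62, adjusted p = 0.00844) and lower in 2i than in DMSO (log2 -2.59 ± 0.63, adjusted p = 0.00528). Without DMSO replicate 2 these log2 fold changes were -1.22 and -1.36, with neither called. The call of CH was lost without any 1 of the CH libraries, and that of 2i without any 1 of the 2i libraries. Against Fgf2/Activin, CH gave -2.97 ± 0.63 (adjusted p = 0.00293) and 2i -3.11 ± 0.64 (adjusted p = 0.00179). The former was lost without any 1 of the CH libraries (adjusted p of at most 0.0127), and the latter was called in all 6 fits that left out 1 library.

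Etv4 and Etv5, ETS factors of the same group, parted under the MEK inhibitor. Etv4 was at 74.6, 153 and 148 CPM in CH, 7.17, 29.1 and 26.6 CPM in 2i, 26.5, 60.2 and 75.1 CPM in DMSO and 73.6, 74.1 and 73.9 CPM in Fgf2/Activin. Every 2i library lay below every CH and Fgf2/Activin library, and in CH, 2i and DMSO the library numbered 1 was the lowest by far. Between 2i and CH the log2 fold change was -2.57 ± 0.50 (95% interval -3.68 to -1.47, adjusted p = 0.0110), just outside the threshold. With the block it was -2.65 (adjusted p = 2.34e-04) and called, and over 12 alternatives the adjusted p lay between 1.24e-10 and 0.0450. Against Fgf2/Activin, Etv4 was called lower in 2i (log2 -1.81 ± 0.49, adjusted p = 0.00955), a call that was lost without any 1 of the 6 libraries compared.

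Etv5 was at 537, 672 and 668 CPM in CH, 641, 606 and 590.5 CPM in 2i, 541, 547 and 550.1 CPM in DMSO and 739.6, 619 and 619 CPM in Fgf2/Activin. The 2i libraries lay within the range of the CH libraries. Between 2i and CH the log2 fold change was -0.03, with a 95% interval of -0.24 to 0.18 (0.848 to 1.13-fold, adjusted p = 0.924), so a 2-fold change in either direction lay outside the interval. None of the 6 comparisons of E14 cultures called Etv5, and the log2 fold changes lay between -0.11 and 0.27.

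Etv1 was at 7.35, 27.2 and 26.6 CPM in CH, 2.61, 14.7 and 15.2 CPM in 2i, 10.1, 17.5 and 22.3 CPM in DMSO and 18.8, 32.6 and 31.3 CPM in Fgf2/Activin. In each culture the library numbered 1 was the lowest. Between 2i and CH it gave -0.91, with a 95% interval of -2.25 to 0.44 (adjusted p = 0.493). Against Fgf2/Activin, 2i gave -1.34 (adjusted p = 0.0892), which was called with the block (log2 -1.55, adjusted p = 5.54e-04), and over 12 alternatives the adjusted p lay between 1.11e-07 and 0.192.

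**Figure D2:**
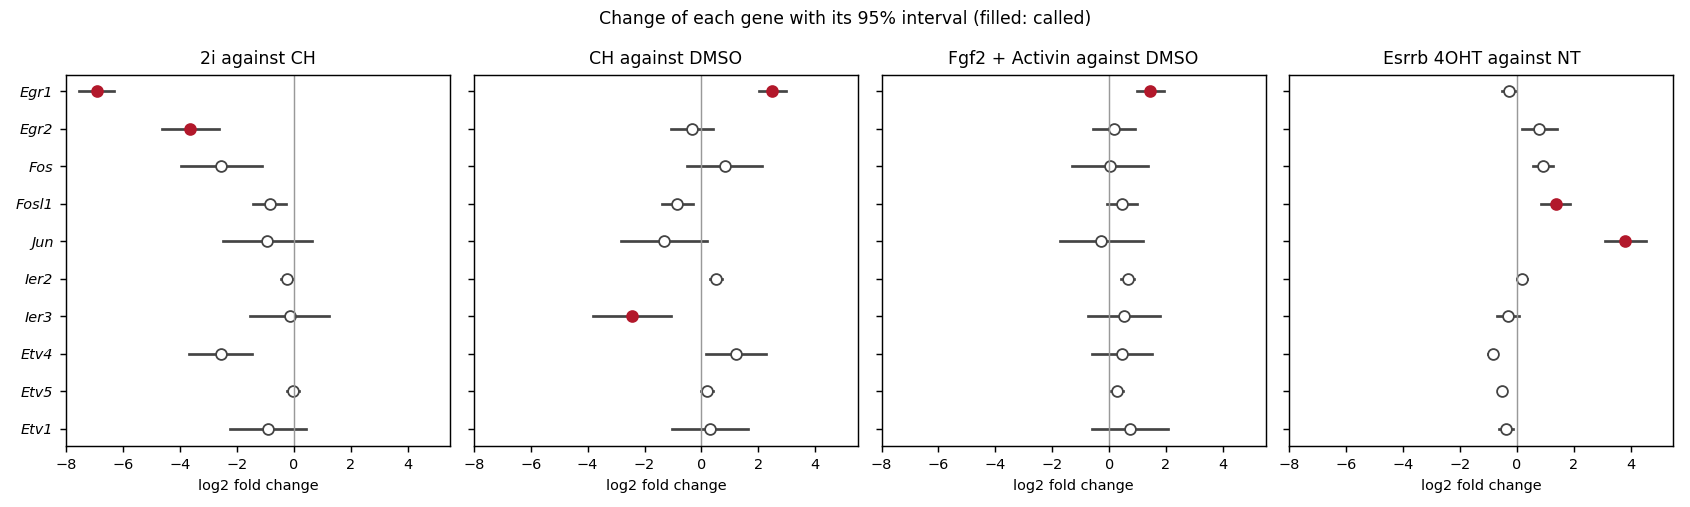
Log2 fold change of each gene (first-named group over second) in 4 comparisons, with the 95% interval as a line and called genes filled. Egr1 lies at -6.93 in 2i against CH and at 2.49 in CH against DMSO, Jun at 3.81 in Esrrb 4OHT against NT, and the interval of Etv5 in 2i against CH runs from -0.24 to 0.18.

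The other comparisons among the E14 cultures share samples with the one above, so their counts are not independent of it. CH against DMSO asked what GSK3 inhibition alone changed. Egr1 alone of the 10 genes was called higher and Ier3 alone lower, where 7.51% of all genes were called higher and 10.2% lower. With the replicate block 3 were called higher, with Fos (log2 1.02, adjusted p = 0.00384) and Etv4 (log2 1.25, adjusted p = 0.00299) added, and 2 lower, with Jun added. Shares of all genes, here and below, come from the fit without the block. None is given for the fit with it, so counts with the block have no share to be set against. Over 12 alternatives the adjusted p lay between 3.55e-06 and 0.677 for Fos and between 7.92e-09 and 0.159 for Etv4.

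In 2i against DMSO, 4 of the 10 genes were called lower (Egr1, Egr2, Fosl1 and Ier3), with 14.0% of all genes called lower. The block made it 7 by adding Fos (log2 -1.53, adjusted p = 5.04e-04), Jun (log2 -2.35, adjusted p = 1.08e-05) and Etv4 (log2 -1.39, adjusted p = 0.00179). The 14.0% belongs to the fit without the block. Over 12 alternatives the adjusted p of these 3 reached 0.337, 0.0836 and 0.137. None was called higher, with 8.37% of all genes called higher, 1 of the 10 higher at an unadjusted p under 0.05, and 0 by DESeq2.

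Fgf2/Activin, which adds the pathway's ligand from outside, differed little from DMSO. Egr1 alone was called higher, where 0.902% of all genes were called higher, and 0 were called lower, where 0.347% of all genes were. At an unadjusted p under 0.05, 3 were higher and 0 lower, and DESeq2 called 1 higher and 0 lower. The median log2 fold change of the 10 genes was 0.46, against -0.02 for all genes.

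In 2i against Fgf2/Activin, 5 of the 10 genes were called lower (Egr1, Egr2, Fosl1, Ier3 and Etv4), with 14.4% of all genes called lower, and 8 with the block, which added Fos (log2 -1.76, adjusted p = 1.65e-04), Jun (log2 -2.05, adjusted p = 2.98e-05) and Etv1. Over 12 alternatives the adjusted p reached 0.139 for Fos and 0.138 for Jun. None was called higher, against 9.13% of all genes, and at an unadjusted p under 0.05 and by DESeq2 it was 0 as well. In CH against Fgf2/Activin, Egr1 was called higher, with 7.90% of all genes, and Fosl1 and Ier3 lower, with 10.3% of all genes. Fosl1 gave a log2 fold change of -1.30 ± 0.24 there (adjusted p = 0.00136), and with the block Jun was called lower as well (log2 -1.25, adjusted p = 0.00100, reaching 0.600 over 12 alternatives).

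Esrrb 4OHT was compared with Esrrb NT next, all in the presence of CHIR99021. Esrrb is a nuclear receptor of the naive pluripotency network and a target of GSK3 inhibition. Differences here go with its deletion and with the 4OHT treatment, which these samples do not separate. Jun and Fosl1 rose, Etv4 and Etv5 were lower by less than 2-fold, and the groups overlapped for Egr1, Ier2 and Ier3. Of the 10 genes, 2 were called higher in Esrrb 4OHT than in Esrrb NT, where 12.8% of 14893 genes tested were called higher, and 0 lower, where 3.87% were. At an unadjusted p under 0.05, 4 were higher and 4 lower, and DESeq2 called 2 higher and 0 lower. With the replicate block the calls were also 2 higher and 0 lower, but 8 of the 10 genes passed the adjusted p, against 5 without it. The share of all genes that passed the adjusted p is not given for either fit. The median of the 10 was -0.06 on the log2 scale, against 0.00214 for all genes.

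Jun rose from 4.14, 2.46 and 2.07 CPM in Esrrb NT to 57.3, 31.4 and 32.4 CPM in Esrrb 4OHT. Every Esrrb 4OHT library lay far above every Esrrb NT library, with 657 to 1179 counts against 40 to 78. The change was 14.0-fold (95% interval 8.49 to 23.1, log2 3.81 ± 0.32, adjusted p = 2.33e-05), and it was called in all 6 fits that left out 1 library. Junos had 1 to 2 counts per library in Esrrb NT and 2 to 5 in Esrrb 4OHT.

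Fosl1 rose from 1.11, 1.02 and 1.40 CPM to 3.55, 2.49 and 3.10 CPM without overlap, which was 2.58-fold (log2 1.37 ± 0.22, adjusted p = 8.50e-04). The overlapping Ccdc85b had 246 to 276 counts in Esrrb NT and 224 to 245 in Esrrb 4OHT, thus lower where Fosl1 was higher. Fos was at 8.49, 13.1 and 12.9 CPM in Esrrb NT and at 22.0, 21.6 and 21.2 CPM in Esrrb 4OHT, again without overlap. Its change of 1.88-fold passed the p but not the minimum fold (log2 0.91 ± 0.15, adjusted p = 9.89e-04), and without Esrrb NT replicate 2 it was 1.01 and called.

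Etv4 was at 156, 148 and 146 CPM in Esrrb NT and at 75.0, 88.9 and 85.0 CPM in Esrrb 4OHT. The groups did not overlap, and the log2 fold change was -0.85 ± 0.07 (95% interval -1.01 to -0.70, adjusted p = 1.95e-05). Etv5 was at 422, 472 and 483 CPM in Esrrb NT and at 299.7, 328 and 323 CPM in Esrrb 4OHT, with a log2 fold change of -0.53 ± 0.06 (95% interval -0.68 to -0.39, adjusted p = 1.36e-04). Both were thus lower in every Esrrb 4OHT library by less than 2-fold. Etv5, which the MEK inhibitor left within 0.848 to 1.13-fold in E14 cells, was at 0.690 times its control here. These are separate cell lines and the difference between the comparisons was not tested.

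Etv1 was at 63.4, 65.7 and 63.5 CPM in Esrrb NT and at 39.7, 54.2 and 53.4 CPM in Esrrb 4OHT (log2 -0.39 ± 0.11, adjusted p = 0.0146). Egr1 was at 323, 340.15 and 310.2 CPM in Esrrb NT and at 319, 237 and 239 CPM in Esrrb 4OHT, groups that overlapped (log2 -0.29 ± 0.11, adjusted p = 0.0446). Egr2 was at 1.22, 2.20 and 1.60 CPM and at 3.69, 2.68 and 2.34 CPM, without overlap (log2 0.79 ± 0.27, adjusted p = 0.0317). None of these passed the adjusted p without the block. Ier2, between 97.9 and 109 CPM in Esrrb NT and between 106 and 128 in Esrrb 4OHT, and Ier3, between 5.62 and 8.29 CPM and between 5.30 and 6.45 CPM, overlapped as well. Between libraries of the same number, however, Egr1 and Ier3 were lower and Ier2 higher in Esrrb 4OHT in every pair.

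**Figure D3:**
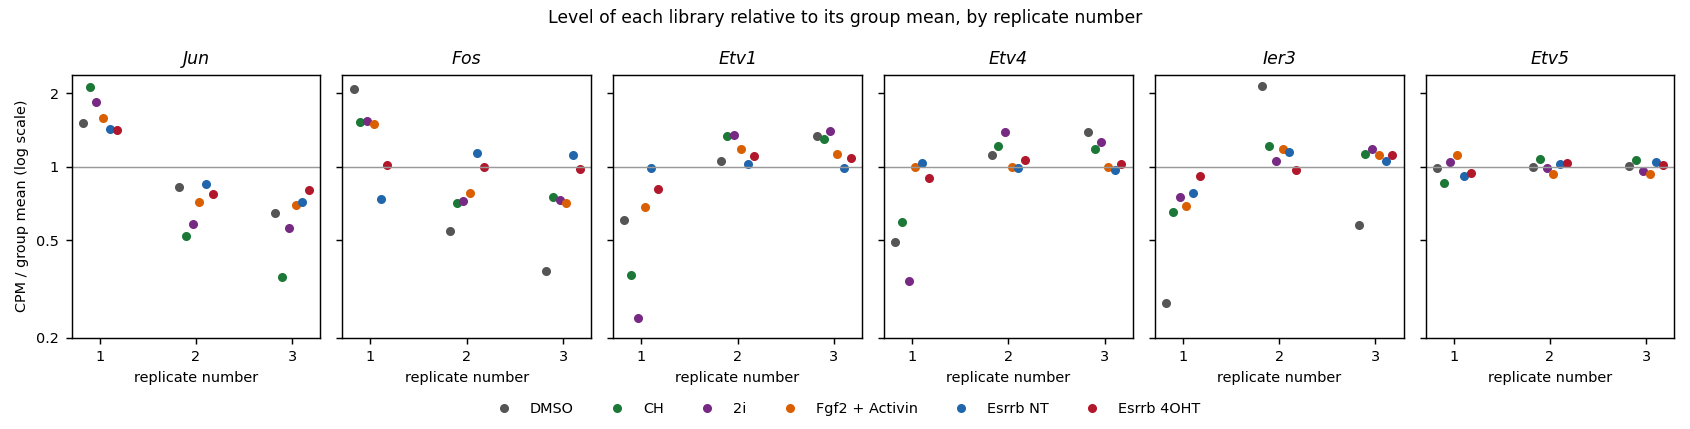
Level of 6 of the genes in each library divided by the mean of its group (log scale), against the replicate number in the labels, with 1 colour per group. Jun is highest in the library numbered 1 in all 6 groups, Etv1 and Ier3 lowest in it in all 6, and Etv5 stays near 1 throughout.

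The library numbered 1 stood apart for several of these genes in the same direction. Jun was highest in it in 6 of 6 groups, at 2.06 to 4.86 times the mean of the other 2 libraries in the E14 cultures, 1.83 times in Esrrb NT and 1.80 times in Esrrb 4OHT. Fos was highest in it in 4 of 4 E14 cultures, at 2.01 to 4.53 times, but was at 0.654 times in Esrrb NT. Etv1 and Ier3 were lowest in it in 6 of 6 groups, and Etv4 in 4 of 4 E14 cultures. In the E14 cultures Etv1 was at 0.175 to 0.589 times and Etv4 at 0.257 to 0.995 times the mean of the other 2. The heat shock gene Hspa1b was lowest in it in 4 of 4 E14 cultures too, at 0.119 to 0.370 times, and Hspa1a in 3 of 4, at 0.0529 to 1.06 times. Over 10468 genes, deviations from group means were shared by E14 samples of the same number, with correlations of 0.394 to 0.841 in 18 pairs. The fits with the block above take up this shared part. What the number stands for is not given, and what lies behind it was not tested.

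Without the libraries numbered 1, an alternative chosen after seeing the data, the count called lower in 2i against CH was 4, with Fos (log2 -2.53, adjusted p = 3.69e-07) and Etv4 (log2 -2.43, adjusted p = 1.24e-10) added to Egr1 and Egr2. Jun in Esrrb 4OHT against NT was 3.81 with and without them. Etv5 in 2i against CH was -0.16 (adjusted p = 0.00541) without them, past the p but far below 2-fold.

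Across the 12 E14 libraries, Pearson correlations of log2(CPM + 1) between the 10 genes ran from -0.25, for Jun with Etv5, to 0.88, for Egr2 with Fosl1. The libraries share 4 cultures, their numbering and their scaling, so these values are descriptions. Of 9114 genes that averaged 10 CPM or more, those most like Egr1 were Slc16a10 (r = 0.96), Lrp8 (r = 0.96) and Arhgef5 (r = 0.92). Slc16a10 had means of 15.5 CPM in DMSO, 22.2 in CH, 2.86 in 2i and 22.1 in Fgf2/Activin, thus without the gap that Egr1 shows between CH and Fgf2/Activin. Those most like Etv4 were Spry4 (r = 0.96), Impdh1 (r = 0.93) and Tcf12 (r = 0.92). Spry4, an inhibitor of the pathway, had means of 22.0 CPM in DMSO, 35.3 in CH, 5.66 in 2i and 27.6 in Fgf2/Activin.

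Other immediate early genes, a list of 20 that includes Fosb, Fosl2, Junb, Jund, Atf3, Nr4a1 and Klf6, were counted by the same rule. In 2i against CH 1 of 19 tested was called lower (Maff, log2 -1.46 ± 0.28, adjusted p = 0.00904) and 0 higher. Of all genes, 1.67% were called lower and 0.317% higher there, and 0 of the 19 were higher at an unadjusted p under 0.05 or by DESeq2. Their median log2 fold change was -0.31. In CH against DMSO 6 of 19 were called lower and 0 higher, with a median of -0.52, where 10.2% of all genes were called lower and 7.51% higher. The 0 higher held at an unadjusted p under 0.05 and by DESeq2. The 6 were Egr4 (log2 -3.46), Fosl2 (log2 -2.92), Ier5 (log2 -2.15), Jund (log2 -1.85), Klf6 (log2 -1.20) and Srf (log2 -1.02), the last being the factor that binds the CArG box. Fosl2, an AP-1 subunit, was at 17.6 ± 6.73 CPM in DMSO, 2.31 ± 0.736 CPM in CH and 1.18 ± 0.454 CPM in 2i.

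Egr4 moved apart from Egr1, though at levels near the floor that rest on few counts. Egr3, at 0.133 CPM in DMSO and 0.0914 CPM in CH, was too low to be tested. Egr4 was at 0.820 ± 0.223 CPM in DMSO, 1.01 ± 0.322 CPM in Fgf2/Activin and 0.0716 ± 0.0355 CPM in CH. Between CH and DMSO it fell by 3.46 on the log2 scale (SE 0.56, adjusted p = 4.43e-04). In the same comparison Egr1 rose and Egr2 gave -0.34. In Fgf2/Activin against DMSO 0 of the 19 were called in either direction, where 0.902% of all genes were called higher and 0.347% lower. There were 4 higher and 1 lower at an unadjusted p under 0.05, and DESeq2 called 2 higher and 0 lower.

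In Esrrb 4OHT against NT, 12 of 18 tested were called higher and 0 lower, where 12.8% of all genes were called higher and 3.87% lower. The median of the list was 1.38 on the log2 scale, with 0 lower at an unadjusted p under 0.05 or by DESeq2. The 12 were Fosl2, Atf3, Btg2, Klf6, Cyr61, Junb, Gadd45b, Jund, Fosb, Nr4a1, Zfp36 and Ier5. Fosl2 changed most, from 0.328 ± 0.128 to 8.01 ± 2.07 CPM (log2 4.58 ± 0.32, adjusted p = 1.04e-05). Klf6 went from 45.1 ± 2.51 to 194 ± 62.9 CPM (log2 2.11 ± 0.20), and the AP-1 subunit Junb from 8.06 ± 1.68 to 33.2 ± 16.4 CPM (log2 2.04 ± 0.33).

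Feedback inhibitors of ERK, which the pathway switches on to limit itself, gave 3 of 9 called lower in 2i against CH, where 1.67% of all genes were. The 3 were Dusp4 (log2 -2.88 ± 0.24), Spry4 (log2 -2.63 ± 0.38) and Dusp6 (log2 -1.80 ± 0.14), with a median of -0.94 for the 9. In CH against DMSO, where Egr1 rose, 3 of 9 were called lower and 1 higher. Spred3 (log2 -1.89), Dusp4 (log2 -1.86) and Dusp5 (log2 -1.62) were lower, and Spry2 (log2 1.36) was higher. Of all genes, 10.2% were called lower and 7.51% higher there. In Esrrb 4OHT against NT, Spry2 (log2 -1.15) and Spry4 (log2 -1.25) were called lower, and Spred3, Dusp4 and Dusp5 higher (log2 1.58, 1.28 and 1.10). Of all genes, 3.87% were called lower and 12.8% higher in that comparison. The genes of the cascade itself, 16 from Hras to Ptpn11, gave 0 calls in 2i against CH and in Esrrb 4OHT against NT. This held in either direction, by edgeR and by DESeq2. At an unadjusted p under 0.05, 3 were higher and 2 lower in 2i against CH, and 3 higher and 8 lower in Esrrb 4OHT against NT.

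**Figure D4:**
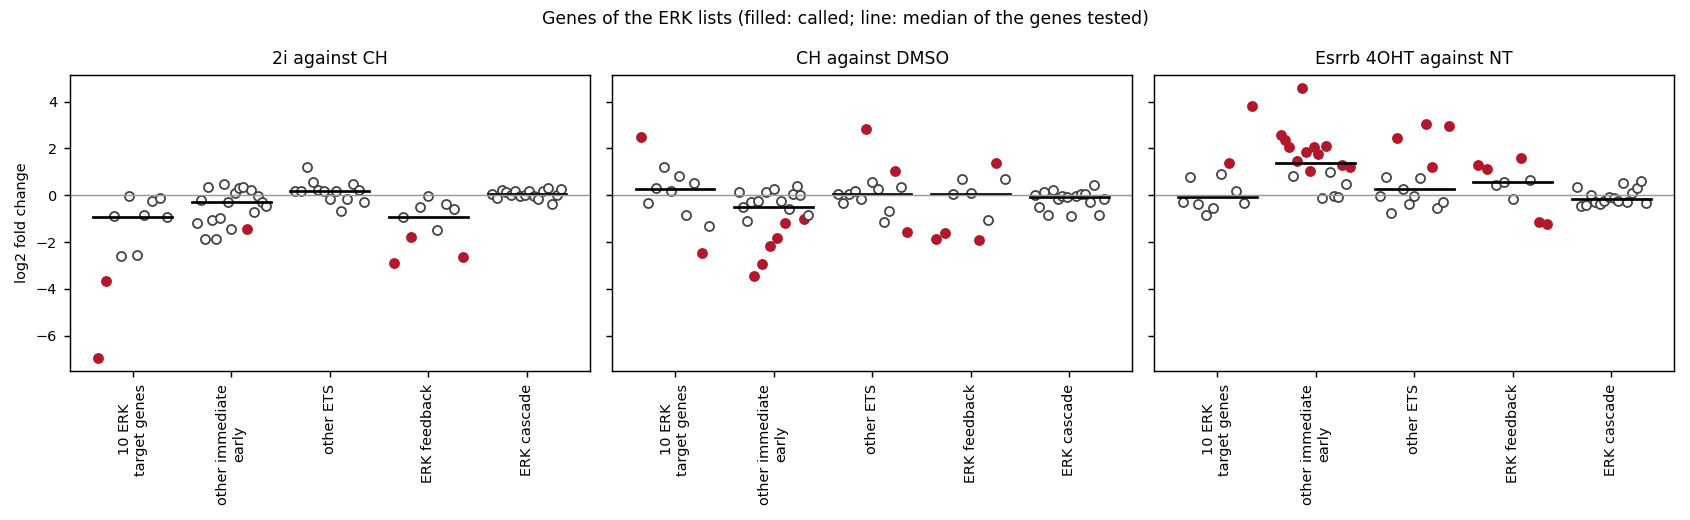
Log2 fold change of every tested gene of 5 lists in 3 comparisons, with called genes filled and the median of each list as a line. In Esrrb 4OHT against NT the other immediate early genes have a median of 1.38 and 12 of 18 called higher (12.8% of all genes), while the median of the 10 ERK target genes is -0.06.

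Immediate early genes can also respond to handling, and the cells were warmed and dissociated before lysis. In 2i against CH, 0 of 13 heat and dissociation stress genes were called in either direction by edgeR or DESeq2, with 2 higher and 0 lower at an unadjusted p under 0.05. Of all genes, 0.317% were called higher and 1.67% lower there. The summed level of the list was 4684 to 7307 CPM in CH and 6144 to 7641 CPM in 2i. In CH most of it came from Hsp90aa1, Hspa8 and Hspd1, at means of 2632, 1468 and 914 CPM. For Esrrb 4OHT against NT the sum was 5625 to 6119 CPM against 8646 to 8917 CPM. Hsph1 was called lower (log2 -1.01 ± 0.10) and 0 of 12 higher, where 3.87% of all genes were called lower and 12.8% higher. At an unadjusted p under 0.05, 7 were lower and 1 higher, and DESeq2 called 1 lower and 0 higher. The part of handling in these results was not tested.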

How the data were processed

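RNA sequencing of 18 samples was used, each placed in its group and replicate by its labels. The authors sequenced poly(A) RNA, mapped it to mm10 (TopHat2), ran HTSeq over Ensembl's GRCm38 genes with its setting for unstranded libraries, and deposited raw counts, so overlapping genes share or lose reads. The HTSeq mode and Ensembl release are not given in the sources used here.

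The 12 E14 samples and the 6 Esrrb fl/fl samples were fitted separately in edgeR 4.0.16 (R 4.3.3) with TMM scaling, filterByExpr and the quasi-likelihood test. Calls needed a Benjamini-Hochberg adjusted p under 0.01 over all genes tested and a log2 fold change beyond 1 in either direction, as in the study's methods. Intervals use the SE and total degrees of freedom of the fit. Alternatives included DESeq2 1.42.0. The scripts were tested on simulated counts.

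Deviations from group means were shared by samples of the same number, with correlations of 0.394 to 0.841 in 18 pairs of E14 samples and 0.388 to 0.567 in 3 pairs of Esrrb fl/fl samples, so the replicate numbers in the labels were taken to pair samples and were fitted as a block in an alternative. Symbols, positions and exon lengths came from GENCODE, and promoters from RefSeq's GRCm38.p6 table. The text names the 10 genes whatever their values, called genes of 5 lists (other immediate early genes, other ETS factors, ERK feedback, ERK cascade, stress), and the 3 genes most like Egr1 and Etv4. The genes and lists were chosen with earlier results of these data known. The total counts per sample, 19915222 to 37158661, limit genes with few counts, and intervals on counts cover the spread between samples.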

Additional observations from a re-analysis of the deposited data

How the results depend on the processing

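Leaving replicates out 1 at a time, the count called lower was 0 to 1 in CH against DMSO (0 without DMSO replicate 2 or any 1 of the CH libraries) and 1 to 2 in CH against Fgf2/Activin, and the count called higher was 0 to 1 in Fgf2/Activin against DMSO and in CH against Fgf2/Activin. With the replicate block, counts called lower were 4 in 2i against CH, 2 in CH against DMSO, 7 in 2i against DMSO and 8 in 2i against Fgf2/Activin, and 3 were called higher in CH against DMSO. No share of all genes is given for the fits with the block. Beside these and Jun in CH against Fgf2/Activin, the block changed no other call. Without the libraries numbered 1, chosen after seeing the data, the same 5 counts were 4, 2, 7, 8 and 3. DESeq2 called 4 lower in 2i against CH. A fit of only the 6 samples compared called 1 lower in 2i against CH, 0 lower in CH against DMSO and 0 higher in Fgf2/Activin against DMSO, with fewer samples to estimate the spread. With no minimum fold, 2 were called higher in CH against DMSO and in Fgf2/Activin against DMSO, and 2 lower in Esrrb 4OHT against NT. Of the fold changes of single genes under the alternatives, 768 stayed on their side of the thresholds with their direction, 34 gained a call and 28 lost one, and no called value changed sign. DESeq2's size factors and the absence of a filter on low counts moved no count of calls by more than 1.5 times.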

Other observations

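Other ETS factors, a list of 15 that holds the ternary complex factors Elk1, Elk3 and Elk4, were counted by the same rule. In CH against DMSO 2 of 13 tested were called higher and 1 lower, where 7.51% of all genes were called higher and 10.2% lower, and the median log2 fold change of the list was 0.07. Elk3, a ternary complex factor that ERK can turn from repressor to activator, was at 2.00 ± 0.813 CPM in DMSO and 14.3 ± 2.93 CPM in CH (log2 2.83 ± 0.28, adjusted p = 1.62e-05), and at 16.0 ± 2.21 CPM in 2i. Etv6, a repressor, rose as well (log2 1.04 ± 0.27, adjusted p = 0.00865), and Spi1 fell (log2 -1.57 ± 0.29, adjusted p = 0.00112) at levels of about 1 CPM or less. In 2i against CH 0 of 13 were called in either direction, with 2 higher and 0 lower at an unadjusted p under 0.05 and 0 by DESeq2. Of all genes, 0.317% were called higher and 1.67% lower there. In Esrrb 4OHT against NT 4 of 13 were called higher, where 12.8% of all genes were, namely Ets1 (log2 3.02 ± 0.26), Spi1 (log2 2.94 ± 0.55), Elf4 (log2 2.44 ± 0.13) and Ets2 (log2 1.21 ± 0.14). Called lower were 0, where 3.87% of all genes were, with 4 lower at an unadjusted p under 0.05 and 0 by DESeq2. Ets1 went from 1.04 ± 0.294 to 8.48 ± 1.95 CPM. These lists were chosen with earlier results of these data known.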
